A study of Mus musculus with 12 samples.

Results

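Brip1 encodes a DNA helicase, also called BACH1 or FANCJ, that binds BRCA1 and acts in the Fanconi anaemia and homologous recombination pathways. The genes described here are 37 partners of Brip1 in those pathways, out of 55416 genes counted, and were taken from a written list by their GENCODE names. The rule uses no measured level, although the list was drawn up with earlier results of these data known. All 37 names were found. Brip1 itself serves as the reference and is not counted among the 37, and the question asked of the data was whether the partners follow its enrichment in inner hair cells (IHCs).

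The RNA came from the organ of Corti, the sensory epithelium of the mouse cochlea, at postnatal day 0 (P0). There were 6 libraries of IHCs, which pass sound signals to the auditory nerve, and 6 of outer hair cells (OHCs), which amplify sound. Each library was a pool of sorted cells from several pups of both sexes, labelled WT, so p-values measure the spread between pools and single animals cannot be told apart. Atoh1-GFP marked the sorted cells, and OHCs were told apart by R26-TdTomato, a reporter that depends on the Cre of Insm1-GFP-Cre. IHCs carried GFP alone, whereas OHCs carried GFP and tdTomato, the latter switched on by Cre from Insm1, a gene of embryonic OHCs, so a cell that had not recombined would be sorted as an IHC. Ribosomal RNA was depleted, and the cDNA, made from random hexamer primers, was amplified before sequencing.

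The Fanconi pathway repairs cross-links between the strands of DNA. A core complex of Fanconi proteins attaches ubiquitin to FANCI and FANCD2, nucleases that gather on SLX4 then cut the cross-link out, and the break that results is repaired by homologous recombination, a copying of the intact sister sequence in which BRCA1 and BRCA2 act. Many of these genes are known to be raised in dividing cells, in the phases of DNA synthesis and thereafter, while hair cells have left the cell cycle before birth.

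The sequence around the start of these genes was searched for the motif of E2F factors, which raise genes for DNA synthesis. The window from 250 bases before to 50 bases after the start of the main transcript held at least 1 match, on either strand, to the spelling TTGGCGC, the spelling TTCCCGC, the spelling TTCGCGC or the spelling TTGCCGC in 18 of the 37 partners (48.6%), against 11.1% of the windows of 21614 protein-coding genes. With only TTGGCGC and the second spelling, TTCCCGC, the shares were 37.8% and 8.16%. The following stretches of 27 bases, around the first match in Brip1 and in 6 partners for which levels are described, are shown 5′ to 3′ on the strand of the gene, with the match or its reverse complement in capitals. They come from the GRCm39 genome with the transcript starts of GENCODE vM39.
Brip1, chr11:86092007-86092033, minus strand: ggggcgggagGCGCGAAttcatctgtg
Brca1, chr11:101442744-101442770, minus strand: ctagcgctagGCGCCAAgcggccggtt
Brca2, chr5:150445908-150445934, plus strand: ttaggccacaGCGGGAAacagacacac
Bard1, chr1:71142465-71142491, minus strand: gatggcttcaGCGGCAAgctcctgagg
Nbn, chr4:15957925-15957951, plus strand: ctctggccggTTCCCGCctttccgaag
Rad50, chr11:53598116-53598142, minus strand: gtcgtgcgagGCGGGAAtgtgcgagct
Topbp1, chr9:103182251-103182277, plus strand: gccgaaactgTTGCCGCaaacccagac

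Slx4, the partner that was enriched in IHCs as Brip1 was, held no E2F match in its window. That window, at the start of the main transcript, lies inside the annotated gene (chr16:3796969-3821634, minus strand). It does not reach the outermost annotated start, at 3821634, and the sequence there was not searched. The 90 bases before the start are shown for both genes, with any match to CCAAT or its reverse complement ATTGG, the motif bound by NF-Y, in capitals.
Brip1, chr11:86092044-86092133, minus strand: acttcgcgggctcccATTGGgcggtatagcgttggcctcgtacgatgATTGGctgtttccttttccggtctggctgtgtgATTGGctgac
Slx4, chr16:3819545-3819634, minus strand: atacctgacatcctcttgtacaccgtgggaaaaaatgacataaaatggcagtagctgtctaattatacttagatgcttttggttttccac

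The 90 bases of Brip1 held 3 such matches and those of Slx4 none, although 1 lay elsewhere in the Slx4 window. CCAAT was found in 22 of the 37 windows (59.5%) and in 39.9% of all windows. TTTGAA, the core of the cell-cycle element CHR, was found in 10.8% and 17.1%, and CGCATGC, the motif of NRF1, in 8.11% and 4.69%. A match is a description of the letters and not a binding site. All windows lie at the annotated start of the main transcript. The paper reports that the Brip1 RNA of IHCs lacks early exons and starts inside the gene, beside open chromatin of its own. The windows do not cover that start, and the gene counts used here do not tell the forms apart. By the paper, the reading frame of the IHC form is without the nuclear localization signal and a part of the helicase domain. From RNA foci seen in IHC nuclei, the paper proposes that this form may be a non-coding RNA.

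Counts on genes were 31490204 to 44017309 in the IHC libraries and 29564827 to 39121988 in the OHC libraries, of which ribosomal RNA made up 21.45% to 56.92% and 23.39% to 36.43%, with the highest share in IHC replicate 1. All 4 IHC markers examined (Tbx2, Fgf8, Slc17a8 and Otof) were IHC-enriched, and 4 of 5 OHC markers (Insm1, Bcl11b, Neurod6 and Slc26a5, but not Ikzf2) were OHC-enriched. Of the 13269 genes with enough counts for a test, 506 (3.81%) were IHC-enriched and 324 (2.44%) OHC-enriched by the quasi-likelihood test of edgeR, the test behind all adjusted p-values here unless another is named, at a Benjamini-Hochberg adjusted p of 0.05.

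Brip1 (chr11:85948957-86092592, minus strand) ranged from 150.2 to 408.3 CPM, the count scaled to the library size after TMM scaling, in the IHC libraries, with a median of 295.7. In the OHC libraries it ranged from 14.81 to 56.34 CPM, with a median of 35.92. Every IHC library thus lay well above every OHC library. The log2 fold change, given throughout as OHC against IHC so that negative values mean higher in IHCs, was -3.06 ± 0.32 (SE, adjusted p = 4.51e-06), an 8.36-fold difference in CPM.

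The partners as a group did not show this difference. Of the 37, 26 had enough counts for the test, 1 was IHC-enriched (Slx4, beside 3.81% of all tested genes), 1 was OHC-enriched (Nbn, beside 2.44%) and 24 were not called. An unadjusted p under 0.05 was found for 4 partners, Slx4, Nbn, Ercc4 and Xrcc2, and the share of all tested genes at that level is not given here. The median log2 fold change was -0.10 over the 26 tested partners and -0.04 over all tested genes, and 14 partners lay below 0 and 12 above. The 95% interval of the fold change lay above the value of Brip1 in 23 of the 26 partners. It held that value in the remaining 3, Bard1, Fancc and Fanci, whose estimates were imprecise. This count takes no account of the interval of Brip1 itself, -3.73 to -2.40. The intervals of Ercc4 (low end -3.04), Fancf (-2.98), Rad51d (-2.72), Blm (-2.72) and Rad54l (-2.57) also reached into that range, so these are less clearly set apart from Brip1. In 22 partners the interval held 0. Summed over the 37 genes, the libraries held 263.3 to 429.5 CPM in IHCs and 254.5 to 353.7 CPM in OHCs, ranges that overlapped. In bulk samples, fewer cells that express a gene and less RNA per cell cannot be told apart.

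**Figure D1:**
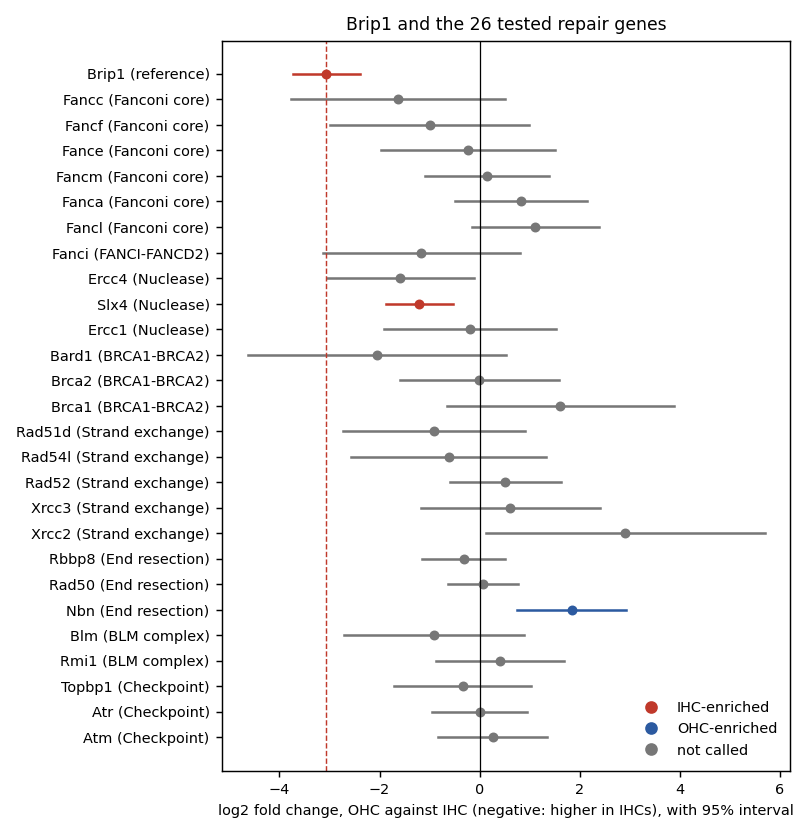
Log2 fold change of OHCs against IHCs (points) with its 95% interval (lines) for Brip1 and the 26 tested partners, grouped by role; negative values mean higher in IHCs, and the dashed line marks the value of Brip1. Slx4 (red) and Nbn (blue) are the called partners, and 23 of the 26 intervals end to the right of the dashed line.

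Among the nucleases that cut at a cross-link, Slx4 was the partner that was enriched in IHCs. Its product is the scaffold on which the nucleases of the pathway assemble. Slx4 (chr16:3796969-3821634, minus strand) ranged from 45.41 to 85.39 CPM in IHC libraries, with a median of 67.5. In OHC libraries it ranged from 10.87 to 43.35 CPM, with a median of 29.67. The lowest IHC library, replicate 6, lay just above the highest OHC library, replicate 2, so the groups did not overlap. The log2 fold change was -1.20 ± 0.32 (SE, adjusted p = 0.0286), which is 2.30-fold and well short of the value for Brip1, with a 95% interval of -1.87 to -0.53. The call was lost without IHC replicate 5, OHC replicate 5 or OHC replicate 6, with adjusted p up to 0.0671. Of the tested genes, 4.6% had libraries that did not overlap, and Slx4 and Nbn were the tested partners among them.

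Genes listed as markers of other cell types also differed between the same libraries. The summed level of 11 supporting cell markers was 410.7 to 843 CPM in IHC libraries and 218.1 to 464.6 CPM in OHC libraries, with 2 markers IHC-enriched (Sox2 and Gjb2), none OHC-enriched and a median log2 fold change of -0.22. Gjb2 alone made up 215.6 and 30.34 CPM of the mean, and Fgfr3 had a log2 fold change of 2.12 (adjusted p = 0.0722) and was called OHC-enriched by DESeq2 and the exact test. That of 6 markers of the greater epithelial ridge, the tissue beside the IHCs, was 723.2 to 1650.82 CPM and 153.9 to 600.6 CPM. Tecta and Fgf10 were IHC-enriched, whereas Tectb (log2 fold change -0.62) and Otoa (0.60, the opposite direction) were not called. Epyc and Crabp1 were too low for the test. Tecta was the largest part of the sum, with a mean of 772.1 CPM over IHC libraries against 219.7 CPM over OHC libraries. The paper places Fgf10 in IHCs as well as in some non-hair cells. The sum of 7 mesenchyme markers was 33.92 to 57.97 CPM and 7.115 to 21.84 CPM, with none called by edgeR, 2 (Col3a1 and Lum) at an unadjusted p under 0.05 and 1 called by DESeq2. That of 6 genes listed as neuron markers was 1195.88 to 2172.14 CPM and 343.9 to 606.4 CPM, with Nefl, Nefm, Gata3 and Ntrk3 IHC-enriched. Nefm, Gata3 and Nefl had means of 762.8, 437 and 431.4 CPM in IHCs, whereas Tubb3 was near 0, at 0.1485 CPM. The ridge and neuron lists alone do not show which cells held this RNA. The part of all these markers in the differences of Slx4 and Brip1 was not tested. Brip1 RNA, too, is placed by the paper in some other cells of the cochlea besides IHCs.

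ERCC4, also called XPF, and ERCC1 form the nuclease that makes a cut beside the cross-link. Ercc4 was listed at 5.298 to 19.17 CPM in IHC libraries (median 11.97) and 0.3198 to 8.107 CPM in OHC libraries (median 3.478), so the groups overlapped. Its log2 fold change of -1.58 ± 0.70 (SE) did not pass the test (adjusted p = 0.192), although it was called by DESeq2 (adjusted p = 0.04). Ercc1 had a log2 fold change of -0.19 ± 0.83 (SE), and its highest values were in IHC replicate 1 (20.34 CPM) and OHC replicate 1 (19.86 CPM).

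**Figure D2:**
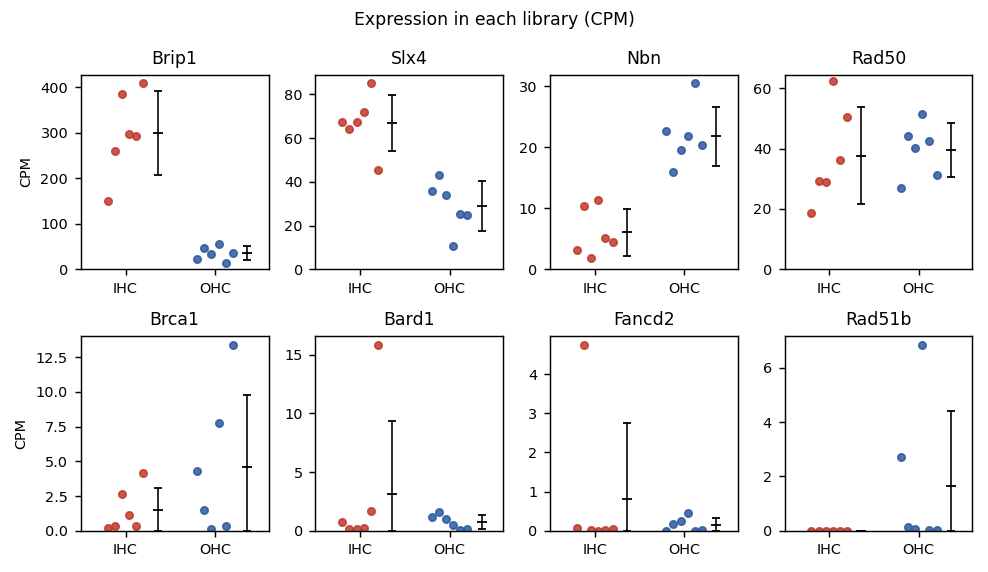
CPM of Brip1 and 7 partners in each of the 6 IHC (red) and 6 OHC (blue) libraries, in the order of the replicate numbers, with the mean and SD in black (the lower bar is cut at 0). Brip1, Slx4 and Nbn separate the cell types, Rad50 is at like levels in both, and Brca1, Bard1, Fancd2 and Rad51b have most of their reads in a few libraries.

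The genes that prepare a broken end, by trimming a strand, did not move together. They ran from Rad50 and Nbn, among the highest partners by mean TPM, to Exo1, which was too low for the test. NBN and RAD50 are subunits of the same complex, with MRE11, which senses and trims the break. Nbn (chr4:15957896-15993588, plus strand) ranged from 1.911 to 11.44 CPM in IHC libraries, with a median of 4.791, and from 15.91 to 30.49 CPM in OHC libraries, with a median of 21.07. All OHC libraries lay above all IHC libraries, opposite to Brip1. The log2 fold change was 1.84 ± 0.52 (SE, adjusted p = 0.0397), which is 3.59-fold, with a 95% interval of 0.75 to 2.93. With single libraries left out, the call was kept only without IHC replicate 2 or IHC replicate 4 and lost in the other 10 fits, where adjusted p reached up to 0.0785.

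Markers of endothelium were also higher in the OHC libraries. All 5 on the list (Cldn5, Cdh5, Pecam1, Kdr and Tek) were OHC-enriched, and their summed level was 0.08173 to 3.185 CPM in IHC libraries and 12.8 to 149.3 CPM in OHC libraries. Their part in the difference of Nbn was not tested.

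Rad50 (chr11:53539837-53598154, minus strand) showed no such difference. It ranged from 18.71 to 62.29 CPM in IHC libraries (median 32.66) and from 26.99 to 51.52 CPM in OHC libraries (median 41.36). The OHC range lay within the IHC range, and the log2 fold change was 0.07 with a 95% interval of -0.63 to 0.77, which leaves out a difference as large as that of Nbn or Slx4. Rbbp8, which encodes the resection factor CtIP, had a log2 fold change of -0.32 ± 0.40 (SE, adjusted p = 0.685). Exo1, an exonuclease of the same step, had its highest value, 2.942 CPM, in IHC replicate 6.

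BRCA1, the direct partner of the BRIP1 helicase, and BARD1, which forms a ubiquitin ligase with BRCA1, were low. Brca1 (chr11:101379577-101442781, minus strand) ranged from 0.1962 to 4.195 CPM in IHC libraries, with a median of 0.75, and from 0.1357 to 13.37 CPM in OHC libraries, with a median of 2.866. Both cell types held libraries near 0 and libraries with clear signal, OHC replicates 6, 4 and 1 and IHC replicate 6 being the highest. The log2 fold change of 1.61 ± 1.09 (SE) did not pass the test (adjusted p = 0.41), and its 95% interval of -0.65 to 3.88 did not reach the value of Brip1.

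Bard1 (chr1:71066657-71142305, minus strand) had the most negative log2 fold change of the tested partners, -2.05 ± 1.24 (SE, adjusted p = 0.352), through 1 library. Its level was 0.1221 to 15.83 CPM in IHC libraries (median 0.4857) and 0.03336 to 1.616 CPM in OHC libraries (median 0.7637). IHC replicate 6 held the 15.83 CPM, the other IHC libraries were within the range of OHCs or close to it, and without that library the log2 fold change was 0.38. Brca2, a gene of the same pathway, had a log2 fold change of -0.0029 ± 0.76 (SE). Palb2, which links BRCA1 to BRCA2, was too low for the test, at 0 to 2.307 CPM.

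Genes of the strand exchange step held no called gene among those tested. None of the 5 tested (Rad51d, Xrcc2, Xrcc3, Rad52 and Rad54l) was called by edgeR, 1 (Xrcc2) had an unadjusted p under 0.05, and the log2 fold changes ran from -0.91 to 2.91, with a median of 0.51. Xrcc2, which acts in strand exchange, had the most positive value of all tested partners, 2.91 ± 1.34 (SE), and did not pass the test (adjusted p = 0.208). It was listed at 0 in 3 IHC libraries and reached 0.5038 CPM in the others (median 0.1991), against 0.04312 to 5.071 CPM in OHC libraries (median 1.37), so the groups overlapped at low level.

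Rad51b, a gene of the same step, had 0 counts in all 6 IHC libraries and 1 to 235 counts in the OHC libraries, from 0.02341 to 6.832 CPM with a median of 0.1017. Only OHC replicates 1 and 4 stood above the level of a few counts, so the gene did not pass the filter for the test. Without the filter the edgeR quasi-likelihood test called it OHC-enriched (adjusted p = 0.019), as DESeq2 did (adjusted p = 0.0002). Rad51c, also of this step, was also too low for the test, with its highest value, 5.692 CPM, in an OHC library.

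None of the 6 tested Fanconi core genes was called by edgeR and none had an unadjusted p under 0.05. Ube2t, which did not pass the filter, was called IHC-enriched by edgeR without the filter (adjusted p = 0.048) and by DESeq2 (adjusted p = 0.036). The core complex holds the ubiquitin ligase FANCL and its scaffold proteins, and the 9 genes of this step also include Ube2t, for a ubiquitin-conjugating enzyme. The tested log2 fold changes ran from -1.63 for Fancc to 1.12 for Fancl, with a median of -0.04. Fancc, an adaptor subunit, ranged from 0.6805 to 8.208 CPM in IHC libraries (median 5.253) and from 0.05815 to 4.074 CPM in OHC libraries (median 0.6685), and the fold change did not pass the test (SE 1.03, adjusted p = 0.376). Overlap of the groups came from IHC replicates 3 and 6 and OHC replicates 2, 3 and 6.

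Fancf, which bridges FANCM and the core, and Fance, which contacts FANCD2, were among the more highly expressed partners. Fancf ranged from 0.5819 to 17.9 CPM in IHC libraries (median 7.422) and from 0.2035 to 10.91 CPM in OHC libraries (median 2.246), with a log2 fold change of -1.0014 ± 0.95 (SE, adjusted p = 0.579). Fance ranged from 0.3063 to 22.12 CPM in IHC libraries (median 6.468) and from 0.8006 to 11.66 CPM in OHC libraries (median 9.339), with a log2 fold change of -0.24 ± 0.83 (SE, adjusted p = 0.9). For both genes the range within IHCs was wider than that within OHCs, and it covered nearly all of the OHC range. Fancb had 0 counts in all 12 libraries, Fancg at most 0.5156 CPM, and Ube2t 0 counts in all OHC libraries and 3.216 CPM in IHC replicate 5.

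FANCD2 and FANCI form the pair that receives ubiquitin from the core complex. Fancd2 (chr6:113508412-113573982, plus strand) was near 0 in most libraries and was not tested. In IHCs it ranged from 0 to 4.739 CPM with a median of 0.04256, and IHC replicate 2 held 194 counts while the others held at most 2. In OHCs it ranged from 0 to 0.4652 CPM with a median of 0.1032, and the highest library held 16 counts. Fanci, its partner, had a log2 fold change of -1.16 ± 0.94 (SE, adjusted p = 0.506), with its highest value, 6.671 CPM, in IHC replicate 1. Without that library its log2 fold change was -0.09.

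**Figure D3:**
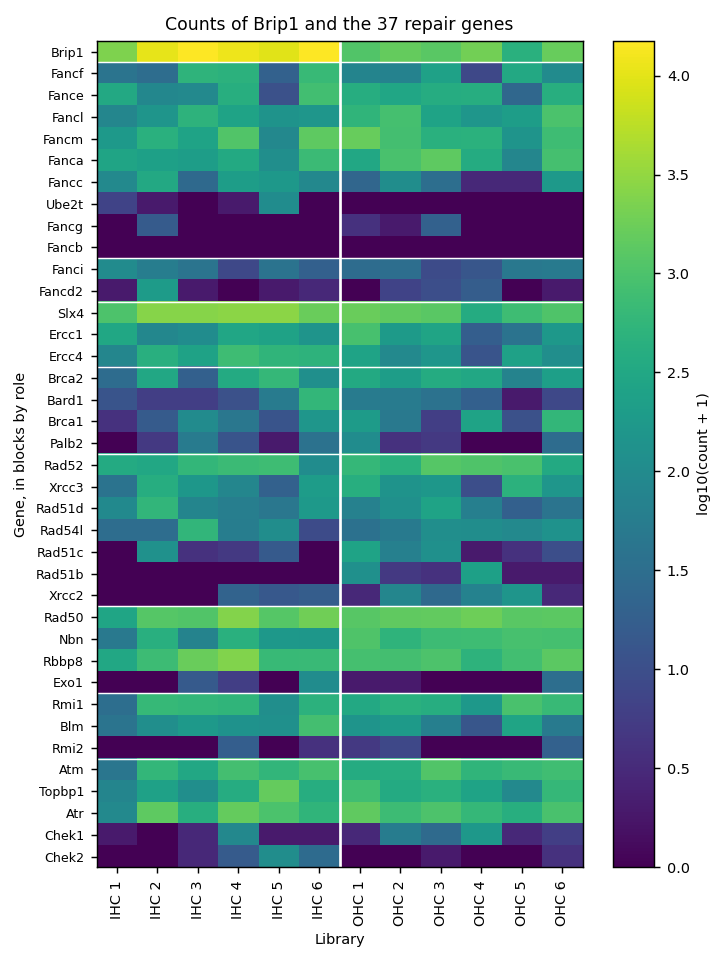
Counts (colour, log10 of the count + 1) of Brip1 and the 37 partners in the 6 IHC and 6 OHC libraries, with white lines between the cell types and between the roles. Fancb is dark throughout, Brip1 is brightest in IHCs, and genes such as Bard1, Fancd2, Chek1 and Rad51b are brightest in only some libraries of a cell type.

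The BLM helicase complex, which takes joined DNA molecules apart, and the checkpoint genes showed no gene called by edgeR and none with an unadjusted p under 0.05, while DESeq2 called 1, Chek2. Blm had a log2 fold change of -0.92 ± 0.86 (SE) and Rmi1, a subunit of the same complex, 0.41 ± 0.61 (SE), while Rmi2 was too low for the test. The kinases ATM and ATR signal the presence of damaged DNA, and Atm and Atr had log2 fold changes of 0.26 (95% interval -0.83 to 1.35) and 0.00 (95% interval -0.95 to 0.95). Both intervals end far from the value of Brip1. Topbp1, an activator of ATR, had a log2 fold change of -0.34 ± 0.66 (SE), with 46.58 CPM in IHC replicate 5 and at most 16.88 CPM in any OHC library. Its median was 7.842 CPM in IHC libraries and 11.29 CPM in OHC libraries. Without IHC replicate 5 its log2 fold change was 0.61. Chek1 and Chek2, kinases downstream of ATR and ATM, were too low for the test.

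Detection of the partners was uneven between libraries. At least 10 counts were present in all 12 libraries for 18 of the 37 genes, and 15 had at most 3 counts in at least 1 library. In 11 genes a library with at most 3 counts stood beside another of the same cell type with at least 100. Among tested genes this held for 3 of the 26 partners (11.5%) and for 13.4% of all, so the tested partners were near the background in this respect. Each library held more than 3 counts of 24 to 32 of the partners.

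Levels were compared between genes as TPM, which scales counts by the exonic length and the library total. By mean TPM over the 12 libraries, Rad50 (17.03), Slx4 (16.55), Nbn (11.10), Fancf (10.48) and Fance (7.892) were the highest partners. The libraries of all 5 overlapped, from 0.2434 TPM for the lowest Fance library to 39.87 TPM for the highest Fancf library, so their order is not resolved, and 3 of the 5 were kept when the longest transcript was used as the length. Of the 37, 22 had a mean TPM above 1. In IHCs, Brip1 stood at a mean of 81.52 TPM, 3.84 times the highest partner, Slx4. In OHCs it stood at 11.11 TPM (SD 4.878), with 3 partners above it by mean TPM, Rad50 (18.36), Nbn (18.01) and Slx4 (11.87, SD 5.668). Its order against Slx4 in OHCs is not resolved. TPM totals included ribosomal RNA, and the length of Brip1 was that of all its annotated exons. In IHC replicate 1 Brip1 was at 13.16 TPM, under OHC replicates 2 (14.58) and 4 (17.39).

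**Figure D4:**
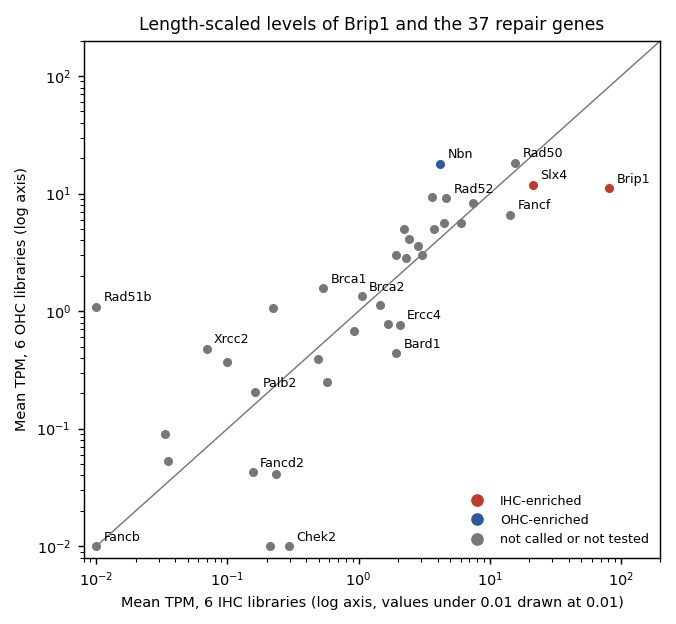
Mean TPM in 6 IHC libraries (horizontal, log axis) against 6 OHC libraries (vertical, log axis) for Brip1 and the 37 partners, with values under 0.01 drawn at 0.01 and the line of equal levels in grey. Brip1 lies to the right of all partners, at 81.52 TPM in IHCs, and Nbn, Rad50 and Slx4 lie above it in OHCs.

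Repair genes outside the list gave a like picture. Among 51 further genes of the Fanconi, recombination and checkpoint pathways, 44 were tested, 1 was IHC-enriched and none OHC-enriched by edgeR (4 on either side at an unadjusted p under 0.05), DESeq2 called 3 and 2, and their median log2 fold change was 0.19. The called gene was Mad2l2, also known as Fancv, which encodes a subunit of a polymerase that copies past damage, with a log2 fold change of -1.66 ± 0.48 (SE, adjusted p = 0.0422), and 1 of 44 stands beside 3.81% of all tested genes. The call was lost with the replicate block and in 7 of 12 fits with a library left out, being kept without IHC replicate 2, 4, 5 or 6 or OHC replicate 6, and adjusted p reached up to 0.138. None of the 3 helicase genes related to Brip1 (Rtel1, Ddx11 and Ercc2) was called by edgeR, although Ercc2 had an unadjusted p under 0.05 and was called by DESeq2. For end joining, the other main route of break repair, 0 of 10 genes were called by edgeR or DESeq2 and 0 had an unadjusted p under 0.05. Of the genes for replication and mitosis, which rise in dividing cells, 22 of 35 were tested and edgeR called 1 OHC-enriched, beside 2.44% of all tested genes, whereas DESeq2 called 5 OHC-enriched and 1 IHC-enriched. Over all 16911 genes it tested, DESeq2 called 1590 OHC-enriched and 1339 IHC-enriched. The gene called by edgeR was Cenpe, a motor protein of mitotic chromosomes, with a log2 fold change of 2.86 ± 0.84 (SE, adjusted p = 0.0472). The call was lost with RLE scaling and in 9 of 12 fits with a library left out, being kept without IHC replicate 2, IHC replicate 3 or OHC replicate 1, and adjusted p reached up to 0.126.

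Some partners share exonic bases with a gene on the opposite strand, and reads there could not be assigned if strand was not used in counting, which is not given in the sources used here. In GENCODE vM39 the share of exonic bases was 43.4% for Xrcc3 (with Klc1), 34.7% for Fancl (with Vrk2), 28.5% for Fanca (with Zfp276) and 28.4% for Fancf (with Gas2). For Slx4 no overlap was found, and for Brip1 it was 2.86%, with the antisense gene Brip1os.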

How the data were processed

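The 12 deposited files hold unnormalized gene-level read counts that the authors made with Trimmomatic, STAR and HTSeq on GRCm39 (GENCODE vM27). Tool versions and the strand setting are not given in the sources used here. The summary lines of HTSeq, for reads not assigned to a gene, held 24.24% to 46.07% of all counts in a library and were left out. No 2 libraries were identical.

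Genes were filtered with filterByExpr (minimum count 10, minimum total count 15) and scaled by TMM, and all 12 libraries were fitted by cell type with edgeR 4.0.16 (glmQLFit and glmQLFTest, R 4.3.3), with p-values adjusted over all tested genes (Benjamini-Hochberg, threshold 0.05). The steps were tested on simulated data. CPM used the scaled library sizes. TPM, coordinates, overlaps and promoter windows used GENCODE vM39, which matched 98.8% of identifiers. At most 3 counts was taken as the floor. Reads carry no molecular identifiers, so depth covers counting error only.

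Partners and lists were chosen with earlier results of these data known. Values per library are given for Brca1, Fancd2, called partners, partners whose groups did not overlap, the 3 largest changes in each direction and the 5 highest mean TPM. In other lists, genes past the threshold were named, up to 5 a list. Alternatives were DESeq2 1.42.0, edgeR's exact test, RLE scaling, other filters, leaving out ribosomal RNA genes or each library, a replicate block, and transcript length.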

Additional observations from a re-analysis of the deposited data

Results flagged for a closer look

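Within a cell type, a single library stood apart from the other 5 by Dixon's criterion in 21 of 72 sets of 6 libraries examined (29.2%), where chance gives about 1 in 20 for normal values. In tested genes alone this held for 17.3% of the sets of the 26 partners and for 19.3% of those of all 13269 genes, so the tested partners were near the background. All but 1 of these were high values. For genes of the BRCA and strand exchange steps they were Palb2 in OHC replicate 1 (2.307 CPM), Bard1 in IHC replicate 6 (15.83 CPM), Rad51c in IHC replicate 2 (3.151 CPM) and Rad54l in IHC replicate 3 (14.76 CPM). In the core complex and its targets, IHC replicate 2 stood apart for Fancd2 (4.739 CPM) and Fancg (0.3664 CPM), OHC replicate 3 for Fancg (0.5156 CPM), IHC replicate 1 for Fanci (6.671 CPM), IHC replicate 3 for Fancl (12.96 CPM) and IHC replicate 5 for Ube2t (3.216 CPM). The low value was that of Fance in OHC replicate 5 (0.8006 CPM).

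Ercc1 stood apart in IHC replicate 1 (20.34 CPM) and OHC replicate 1 (19.86 CPM). In the BLM complex and the exonuclease step, the libraries were IHC replicate 6 for Blm (23.05 CPM), IHC replicate 4 for Rmi2 (0.4282 CPM), and IHC replicate 6 (2.942 CPM) and OHC replicate 6 (0.7258 CPM) for Exo1. Among checkpoint genes they were IHC replicate 5 for Topbp1 (46.58 CPM) and Chek2 (3.43 CPM), and IHC replicate 4 (2.191 CPM) and OHC replicate 4 (4.884 CPM) for Chek1. Neither Brip1, Slx4 nor Nbn had such a library in either cell type.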

How the results depend on the processing

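Brip1 was called in all 19 alternatives, with log2 fold changes of -3.24 to -2.91, Slx4 in 16 of 19 and Nbn in 9 of 19. IHC-enriched and OHC-enriched partners numbered 4 and 2 by DESeq2 (adding Ercc4, Ube2t, Chek2 and Rad51b) and 2 and 2 without the filter (adding Ube2t and Rad51b), and 0 to 1 each with a library left out. DESeq2 tested 33 partners, and over all 16911 genes it called 1339 IHC-enriched and 1590 OHC-enriched. Without the filter 36 partners were tested, and 893 and 918 of all 27488 genes were called. Other repair genes gave 3 IHC-enriched and 2 OHC-enriched by DESeq2, 1 OHC-enriched by the exact test, 0 IHC-enriched with the replicate block and 0 to 1 with a library left out. Replication and mitosis genes gave 1 IHC-enriched by DESeq2 or without the filter, and OHC-enriched 5 by DESeq2, 2 without the filter, 0 by RLE scaling or with at least 10 counts in every library, and 0 to 2 with a library left out. By the length of the longest transcript, 3 of the 5 highest partners were kept. The causes were not tested.

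No partner that passed the test changed direction. Brca2 reversed by DESeq2 (0.0109), RLE scaling (0.0053), the filter of 10 counts in every library (0.0143) and the replicate block (0.6036). With the block so did Bard1 (0.2377), Rad54l (0.2795), Fance (0.5444) and Topbp1 (0.3364), and without ribosomal RNA genes Atr (-0.0009). With a library left out, ranges of log2 fold change crossed 0 for Brca2 (-0.2484 to 0.6031), Bard1 (-2.4244 to 0.3813), Rad50 (-0.0788 to 0.2714), Rad54l (-0.8840 to 0.6410), Fance (-0.5151 to 0.1507), Fancm (-0.1492 to 0.5800), Ercc1 (-0.9896 to 0.4213), Blm (-1.4718 to 0.0451), Rmi1 (-0.0118 to 0.5842), Topbp1 (-0.5475 to 0.6147), Atr (-0.1992 to 0.2339) and Rbbp8 (-0.4379 to 0.0097). Between IHC and OHC libraries of the same replicate number, the correlations of deviations from the cell type mean were -0.0313 to 0.0184, and none of the 6 was over 0.1. Such values cannot show whether pools of the same number came from the same pups, which the labels do not give. With the replicate block 1 partner each was called, Slx4 (log2 fold change -1.28) and Nbn (2.09). The 11 partners with low counts were not tested, and 3 of them (Rad51b, Ube2t and Chek2) were called by DESeq2.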
